A study of Mus musculus with 8 samples.

Results

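The mouse miRNAs mmu-miR-192, mmu-miR-194 and mmu-miR-215 were followed in the livers of mice given carbon tetrachloride (CCL4) and in control livers. They were taken by name, as the 3 of 567 mouse miRNAs on the array that belong to the paired miR-192/miR-194 and miR-194/miR-215 clusters. The rule that chose them used no measured value, though earlier results of these data were known. Of the 3, miR-192 and miR-194 were detected on all 8 arrays, and miR-215 was detected on none. Detection here is the call that the scanner's software made for each miRNA on each array.

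Adult male C57BL/6J mice received CCL4, a hepatotoxin that damages hepatocytes and leaves a fibrotic liver when it is given repeatedly. CCL4 was dissolved in olive oil and injected into the peritoneum, 2 times a week up to week 4 and 1 time a week afterwards, and the control mice were injected with olive oil alone. Total liver RNA was hybridized to single-colour Agilent mouse miRNA arrays. Of the 8 arrays, 5 held CCL4 liver (1 from week 4 and 2 each from weeks 6 and 8) and 3 held olive oil liver (1 each from weeks 4, 6 and 8), and no genotype other than the strain was given for any group. Whether an array held the RNA of 1 mouse or of a pool was not given in the sources used here, so the p-values measure only the spread between these arrays, which may be technical, and the precision is limited by how few arrays there were. The number of miRNAs detected was 158 on the CCL4 array of week 4 and between 117 and 145 on the others, and all arrays were on 1 slide.

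A miRNA is cut from a hairpin in a longer transcript and guides the silencing complex to messenger RNAs, mainly through its seed, bases 2 to 8 of the mature strand. Genes of the miR-192 and miR-194 families lie next to each other in the genome, so that neighbours can be made from a shared primary transcript. Transcription of the clusters is known to be driven by HNF1 family factors in liver, gut and kidney epithelium and to be raised by p53, and miR-192 and miR-194 are among the abundant miRNAs of the hepatocyte.

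The mature sequences show which of the 3 can share targets and which can be told apart by a probe. They were taken from RefSeq (mouse build GRCm38.p6), 5′ to 3′, with the seed in capitals.
mmu-miR-192: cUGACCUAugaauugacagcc
mmu-miR-215: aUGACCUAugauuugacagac
mmu-miR-194: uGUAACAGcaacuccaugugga
MiR-192 and miR-215 had the same seed, which no other of the 1679 mature mouse miRNA names in the table carried. They differed at 3 of 21 positions, counted from 1 at the 5′ end with the base of miR-192 first: C1A, A12U and C20A. The seed of miR-194 was found in miR-194 alone.

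The loci form a pair of clusters, each with a miR-194 gene (RefSeq, GRCm38.p6, plus strand for all 4 hairpins). On chromosome 1, Mir194-1 (185313319 to 185313385) was followed after 195 bases by Mir215 (185313581 to 185313692), and both lie within the bounds of Iars2, the gene of the mitochondrial isoleucyl-tRNA synthetase. On chromosome 19, Mir194-2 (6264643 to 6264728) was followed after 115 bases by Mir192 (6264844 to 6264932), and the gene table listed no other gene over them. The mature miR-194 of the chromosome 1 hairpin (chr1:185313325-185313346) was identical to that of the chromosome 19 hairpin (chr19:6264658-6264679), so the miR-194 signal could not be divided between the loci. MiR-192 (chr19:6264857-6264877) and miR-215 (chr1:185313610-185313630) each come from 1 cluster.

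Each miRNA was read by 2 probe designs that differ in length. In the array's own annotation (build mm9) the miR-192 probes covered 18 and 19 bases of chromosome 19, from 6264860 or 6264859 to 6264877. The miR-194 probes were annotated to the chromosome 1 copy alone and covered 16 and 15 bases, from 187137210 or 187137211 to 187137225. The miR-215 probes covered 17 and 18 bases, from 187137493 or 187137492 to 187137509 on chromosome 1. Every design was spotted 10 times per array, and no spot of these miRNAs was saturated.

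MiR-215 gave no signal above background in any liver. Its background-subtracted signal, in the scanner's intensity units, was −1.10 in CCL4 liver at week 4, −2.42 and −2.07 at week 6, and −1.39 and −2.53 at week 8. In olive oil liver it was −2.40, −2.25 and −2.40 at weeks 4, 6 and 8. Every one of these values lay below 0, and the software's error on each (2.63 to 4.30) was larger than the signal itself. Of the 160 spots of its probes on the 8 arrays, 2 were marked well above background, and both were also marked as outliers. The dimmest miRNA that the software still called detected had a signal of 5.59 to 8.16, except in CCL4 liver at week 4, where it had 0.139. The level of miR-215 is bounded only by these limits, so no fold change can be given for it. It entered no test apart from the alternative fit with no filter on detection.

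MiR-192 was strongly detected in every liver, with all 80 spots of each probe design well above background. Its signal before any scaling was 2168 in CCL4 liver at 4 weeks, 2265 and 3218 at 6 weeks, and 4622 and 4000 at 8 weeks. In olive oil liver it was 2778, 2834 and 3335 at 4, 6 and 8 weeks. The CCL4 arrays thus held both the lowest and the highest signals and the groups overlapped, with means of 3255 ± 1070.5 (SD, n = 5) and 2982 ± 307 (SD, n = 3).

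MiR-194 was detected as firmly, and again all 80 spots of each design were well above background. Its signal was 553 in CCL4 liver at 4 weeks, 508 and 714 at 6 weeks, and 1019 and 976 at 8 weeks. In olive oil liver it was 619.5, 647 and 750 at 4, 6 and 8 weeks. The highest signals were again those of CCL4 liver at 8 weeks, and the groups overlapped here too, with means of 754 ± 236 (SD, n = 5) and 672 ± 68.9 (SD, n = 3). The software's own error was about 8% of the signal for both miRNAs, at most 7.95% for miR-192 and 8.17% for miR-194, and it covers the reading of 1 array and not the spread between livers.

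**Figure D1:**
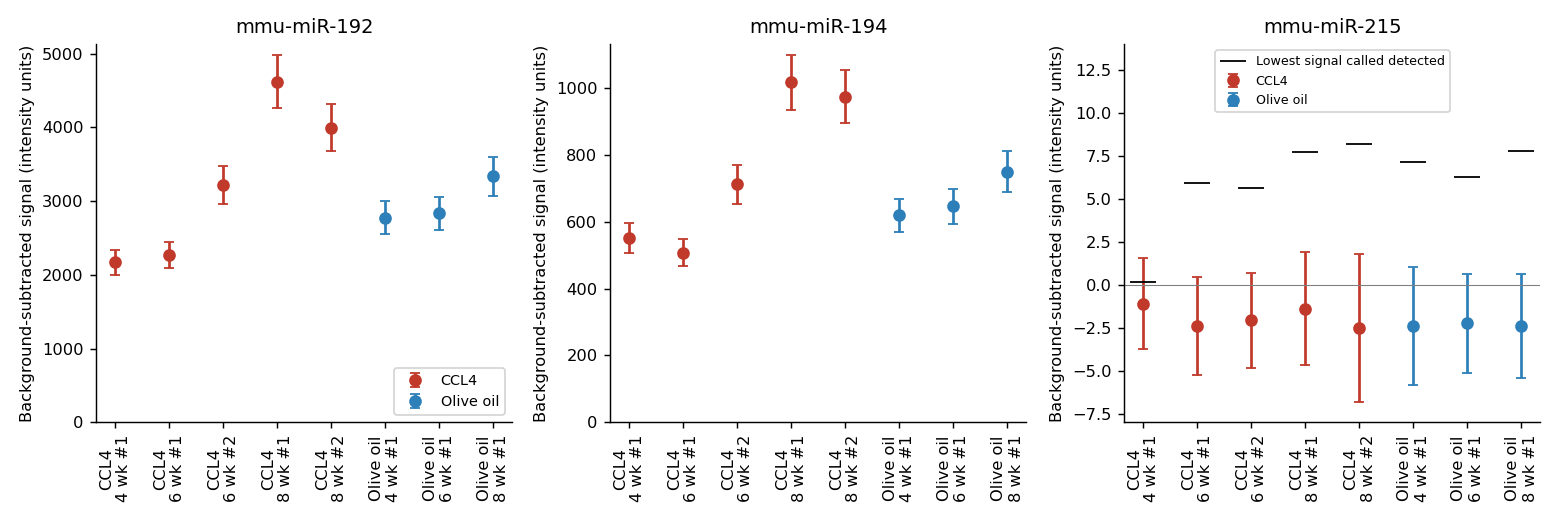
Background-subtracted signal of miR-192, miR-194 and miR-215 in scanner intensity units (y axis, with its own linear scale in each panel) on each of the 8 arrays (x axis), where points are arrays, bars are the software's error for that array and the short black lines in the miR-215 panel are the lowest signal called detected. MiR-192 and miR-194 are highest on the CCL4 arrays of 8 weeks and overlap between CCL4 and olive oil, while every miR-215 point lies below 0.

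Signals were scaled by a 75th percentile, as the study's methods do, and the direction of the comparison depended on how that step is read. The methods take the percentile over the measurements of one species, which can mean the percentile of each mouse array or 1 value common to all of them. Here each array was divided by its own percentile. A common value would cancel from every difference between CCL4 and olive oil and leave the differences given below for no scaling. For CCL4 liver the percentile was 9.5 at week 4, 6.53 and 7.55 at week 6, and 11.0 and 8.68 at week 8, against 5.11, 4.71 and 6.48 on the olive oil arrays of the same weeks. Every CCL4 array therefore had a higher divisor than every olive oil array, by little at the narrowest (6.53 against 6.48). On the olive oil arrays the percentile lay below the lowest signal called detected (7.12, 6.26 and 7.80 at weeks 4, 6 and 8). There the divisor was thus the signal of miRNAs not called detected. On the CCL4 arrays it lay above that lowest signal, by little on some (6.53 against 5.91 at week 6 and 8.68 against 8.16 at week 8). On those arrays, the first of week 6 and the second of week 8, it lay below the second lowest signal called detected (9.87 and 8.95). The divisor there thus also lay among miRNAs not called detected, and the groups are not cleanly set apart in this. The choice moved the median log2 difference of the 113 miRNAs detected on all arrays by 0.67, from 0.31 without scaling to −0.36 with it, so changes are also given below relative to that median.

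After division, the level of miR-192 was 228 in CCL4 liver at 4 weeks, 347 and 426 at 6 weeks, and 419.7 and 461 at 8 weeks. In olive oil liver it was 544, 602 and 514. All CCL4 arrays lay below all olive oil arrays, as was the case for 43.6% of the 133 miRNAs tested. The means were 376 ± 92.5 (SD, n = 5) and 553 ± 44.7 (SD, n = 3).

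The scaled level of miR-194 was 58.2 in CCL4 liver at 4 weeks, 77.8 and 94.5 at 6 weeks, and 92.6 and 112 at 8 weeks. In olive oil liver it was 121, 138 and 116. Again all CCL4 arrays lay below all olive oil arrays, the CCL4 array of 4 weeks was the lowest, and the means were 87.1 ± 20.3 (SD, n = 5) and 125 ± 11.3 (SD, n = 3). The CCL4 arrays of one week differed from each other by 1.23-fold at 6 weeks and 1.1-fold at 8 weeks for miR-192, and by 1.21-fold at both for miR-194. In whole liver, fewer hepatocytes and less of a miRNA per hepatocyte cannot be told apart.

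**Figure D2:**
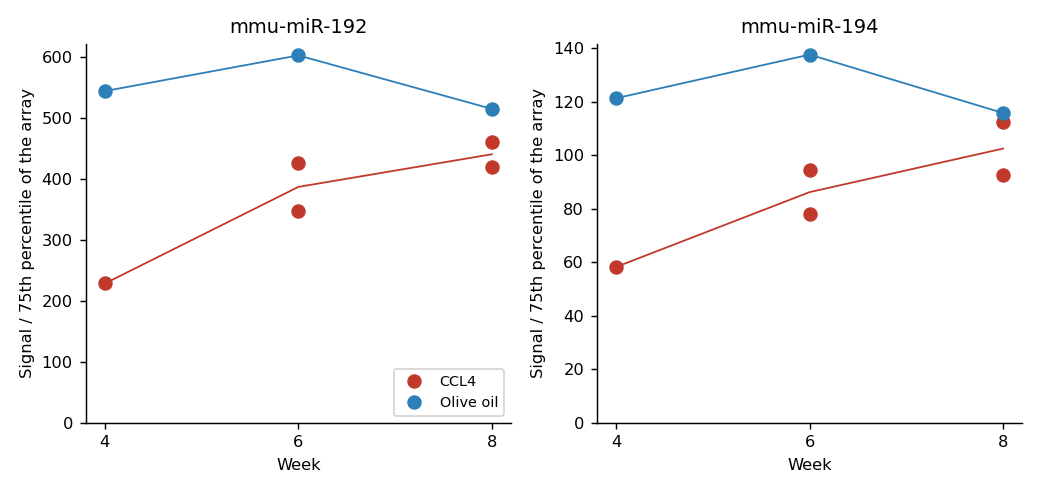
Level of miR-192 and miR-194 after division by each array's 75th percentile (y axis, no unit, linear from 0) against week (x axis), with 1 point per array and lines joining the weekly means. All CCL4 points lie below all olive oil points and the distance narrows from week 4 to week 8, whereas without scaling the same arrays overlap and the CCL4 signals of week 8 lie above the olive oil signal.

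Over the 3 weeks, with week as a factor, both miRNAs were lower in CCL4 liver on the scaled values, and with no scaling the difference was near 0 and of the opposite sign. MiR-192 fell by 0.66 on the log2 scale (SE 0.192, 95% interval −1.08 to −0.24, limma adjusted p = 0.0219), and miR-194 fell by 0.60 (SE 0.185, 95% interval −1.01 to −0.19, limma adjusted p = 0.0232). In the same fit 35.3% of the 133 miRNAs tested were called lower and 13.5% higher, and miR-192 was the 11th and miR-194 the 20th from the lowest. Without scaling, the differences were 0.010 for miR-192 and 0.067 for miR-194 (limma adjusted p = 0.971 and 0.854), and 0% of the miRNAs were called lower by limma (0 also at an unadjusted p under 0.05) and 25.6% higher. Relative to the median of the 113 miRNAs detected throughout, miR-192 differed by −0.30 and miR-194 by −0.25 with and without the division. Without either array of week 4 these relative values were −0.16 and −0.15, and with quantile normalization they were −0.054 and −0.23.

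The calls also rested on the week 4 arrays and on the choice of percentile. Without the CCL4 array or without the olive oil array of week 4, the difference was −0.44 for miR-192 and −0.43 for miR-194, and the limma adjusted p was 0.116 and 0.133. With the percentile computed from only those 113 miRNAs, the differences were −0.46 and −0.40 (limma adjusted p = 0.0694 and 0.0711). An exact two-sided permutation test over the 56 ways to split the arrays, which leaves out the week, gave p = 0.0536 for each miRNA on scaled values, and p = 0.821 for miR-192 and 0.696 for miR-194 on unscaled signals.

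**Figure D3:**
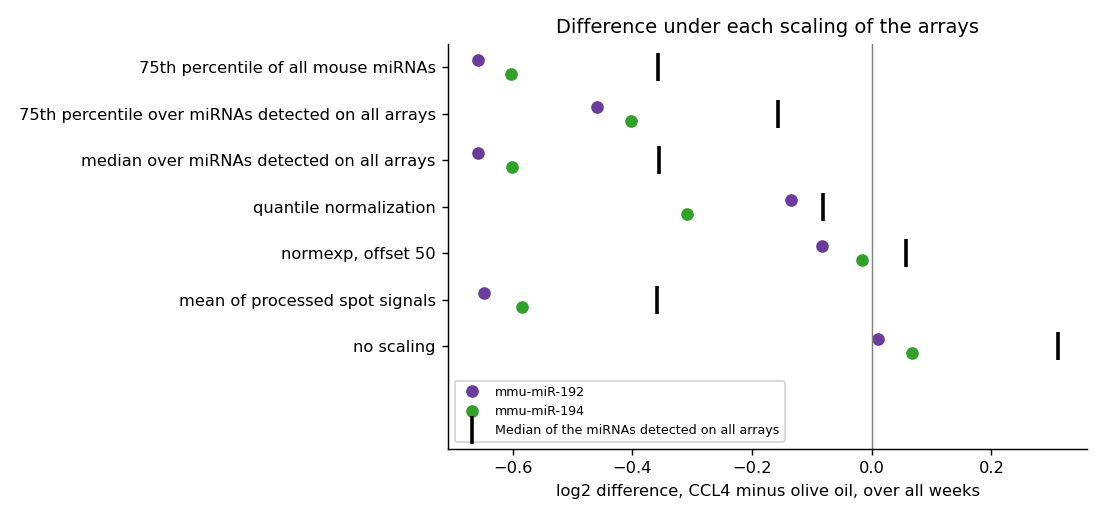
Log2 difference between CCL4 and olive oil over all weeks (x axis) for miR-192 and miR-194 under each way of scaling the arrays (y axis), where the black line is the median of the miRNAs detected on all arrays. Both miRNAs lie to the left of the median under every scaling shown, but left of 0 under all of them except no scaling, where they lie at 0.010 and 0.067.

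Week by week, the scaled difference was greatest at week 4, where 1 array stood against 1. At week 4 miR-192 had a difference of −1.25 (SE 0.328, limma adjusted p = 0.00132), 0.420-fold, and miR-194 one of −1.06 (limma adjusted p = 0.00657), 0.480-fold. In that comparison 33.1% of the miRNAs were called lower and 12% higher, so that both calls stand beside many others. The spread behind these tests came from the CCL4 pairs of weeks 6 and 8, with 2 residual degrees of freedom. Limma pooled it over all miRNAs, which gave every miRNA the same SE, and the lone arrays were taken to vary like the pairs. The raw signals of week 4 were 0.781-fold for miR-192 and 0.893-fold for miR-194 and were not called (limma, without scaling), while the divisors differed by 1.86-fold.

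At weeks 6 and 8 neither miRNA passed the test. At week 6 miR-192 differed by −0.65 (0.639-fold, limma adjusted p = 0.120) and miR-194 by −0.68 (0.624-fold, limma adjusted p = 0.103), where 3.01% of miRNAs were called lower. At week 8 the values were −0.23 (0.855-fold, limma adjusted p = 0.768) and −0.18 (0.881-fold, limma adjusted p = 0.789), where 0.752% were called lower. The raw signals at week 8 pointed the other way, at 1.29-fold for miR-192 and 1.33-fold for miR-194.

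The median of the 113 miRNAs moved along with the weeks, at −0.56, −0.45 and −0.14. Relative to it, miR-192 stood at −0.69, −0.20 and −0.089 and miR-194 at −0.50, −0.23 and −0.045 at weeks 4, 6 and 8. The change of the difference with week was tested as an interaction, in which 6.02% of miRNAs passed. Neither miRNA did, with a limma adjusted p of 0.404 for miR-192 and 0.540 for miR-194, so a narrowing over time was not shown. Without the first or without the second CCL4 array of week 6 the interaction passed for both miRNAs, but that week then held a lone CCL4 array. The spread behind those fits came only from the CCL4 pair of week 8, so they cannot decide whether the difference changed with week. Without the second array the week 6 differences were −0.79 for miR-192 and −0.82 for miR-194.

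The arrays lay in 2 rows of the slide, and the raw signals of both miRNAs moved with the row. In the first row, which held the CCL4 array of week 4, one of week 6 and the olive oil arrays of weeks 4 and 6, the miR-192 signal was 2168 to 2834 and the miR-194 signal 508 to 647. In the second row, with the other CCL4 arrays and the olive oil array of week 8, they were 3218 to 4622 and 714 to 1019, with no overlap. Within the first row (2 arrays against 2) the scaled difference was −1.02 for miR-192 and −0.94 for miR-194, and within the second (3 against 1) it was −0.24 and −0.22. With row as a further term it was −0.70 (limma adjusted p = 0.0259) and −0.64 (limma adjusted p = 0.0282), with the same estimates as when the CCL4 array of week 6 in the second row was left out, since row and week otherwise coincide and cannot be told apart.

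The ratio of miR-192 to miR-194 within an array needs no scaling, and it hardly moved. Its log2 value was 1.97 in CCL4 liver at 4 weeks, 2.16 and 2.17 at 6 weeks, and 2.18 and 2.04 at 8 weeks, against 2.16, 2.13 and 2.15 in olive oil liver. The CCL4 arrays spread on both sides of the olive oil arrays, with means of 2.10 ± 0.095 (SD, n = 5) and 2.15 ± 0.018 (SD, n = 3, exact two-sided permutation p = 0.518). The lowest and the highest of the 8 signal ratios, 3.92 and 4.53, were 1.16-fold apart. A signal ratio of different probes is not a ratio of molecules, and only its constancy between arrays is described here.

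The steadiness of that pair was set against all pairs of the 113 miRNAs detected throughout. The SD of the log2 ratio of miR-192 to miR-194 over the 8 arrays was 0.076, against a median of 0.346 over 6328 pairs, of which 74 had a smaller SD. These pairs share arrays and miRNAs, so the rank is a description. Among the 112 other miRNAs, miR-194 was the third most similar to miR-192, and miR-192 was the fifth most similar to miR-194.

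The miRNAs outside the clusters that tracked miR-192 most closely were miR-107 (SD of the log2 ratio 0.0575 over 8 arrays), miR-203 (0.0576), let-7g (0.0817), miR-30a (0.0827) and let-7b (0.0897). For miR-194 they were miR-30a (0.0579), miR-103 (0.0644), miR-148a (0.0651), let-7g (0.0689) and miR-30c (0.0886). Let-7g and miR-30a were thus near both. MiR-107 and miR-103 are close relatives encoded in introns of pantothenate kinase genes, and the let-7 miRNAs are known repressors of growth-promoting messages.

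MiR-122, the most abundant miRNA of the hepatocyte, served as a reference that belongs to neither cluster. On the scaled values it fell by 0.78 on the log2 scale over all weeks (limma adjusted p = 0.0118), and without scaling its difference was −0.11 (limma adjusted p = 0.760). The log2 ratio of miR-192 to miR-122 was −3.01 ± 0.093 (SD, n = 5) in CCL4 liver and −3.15 ± 0.051 (SD, n = 3) in olive oil liver, a difference of 0.14 (exact two-sided permutation p = 0.0714, adjusted p = 0.107 over the 3 ratios tested). The ratio of miR-194 to miR-122 was −5.11 ± 0.081 and −5.30 ± 0.068, higher on all 5 CCL4 arrays than on any olive oil array. That difference of 0.19 had the smallest p that splits without regard to week allow (exact two-sided permutation p = 0.0179). After adjustment over the 3 ratios it did not pass (adjusted p = 0.0536). With the 18 splits made only within weeks, exact two-sided permutation gave p = 0.0556 for each ratio to miR-122. That is the smallest p these splits allow, so this test could not pass 0.05 whatever the values. Without the CCL4 array of week 4 the adjusted p of both ratios to miR-122 was 0.0429 by exact permutation without regard to week. Without any other single array neither ratio passed, with adjusted p up to 0.214 by the same test. Fewer arrays leave fewer splits and a higher smallest p. Without any other CCL4 array the miR-194 ratio had that smallest p (exact permutation p = 0.0286, adjusted p = 0.0857). These fits therefore cannot show that a difference was lost. Over all arrays left out, the differences were 0.12 to 0.18 for miR-192 and 0.15 to 0.22 for miR-194.

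**Figure D4:**
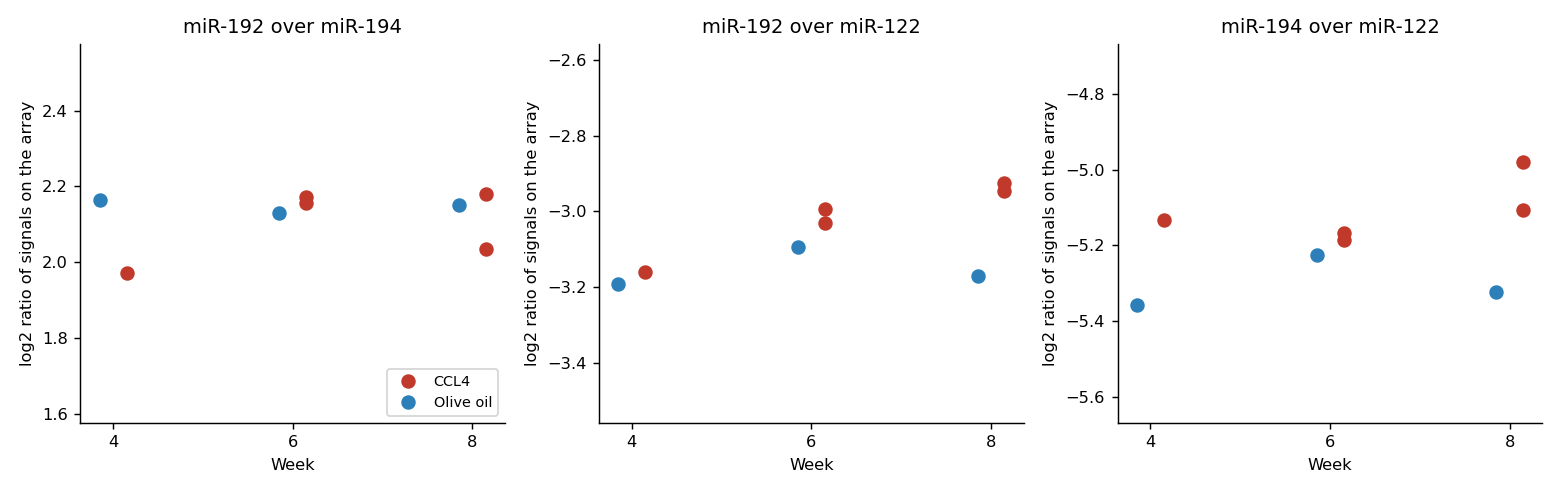
Within-array log2 ratios of miR-192 to miR-194, miR-192 to miR-122 and miR-194 to miR-122 (y axis) against week (x axis), with 1 point per array in the colour of its group. The miR-192 to miR-194 ratio overlaps between the groups (means 2.10 and 2.15), and the miR-194 to miR-122 ratio is higher on every CCL4 array than on any olive oil array; none of the 3 depends on how the arrays were scaled.

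A list of 11 other miRNAs enriched in hepatocytes was mostly lower in CCL4 liver on the scaled values and not without scaling. All 11 were tested, 9 were called lower, 1 was called higher and miR-378 was not called (−0.33, limma adjusted p = 0.124), where 35.3% of all miRNAs tested were called lower and 13.5% higher. The median of the list was −0.58, beside −0.32 over all 133 miRNAs tested. The list was chosen with earlier results of these data known, so its counts and median are no independent evidence. The 9 lower miRNAs ranged from −0.86 for miR-101b, a known repressor of the histone methyltransferase Ezh2, to −0.53 for miR-30a, and miR-365 (−0.71) and miR-22 (−0.68) stood between miR-122 and miR-192. With no scaling 0 of the list were called lower by limma (0 at an unadjusted p under 0.05), 4 of these 9 were still below 0 (miR-101b, miR-122, miR-365 and miR-22) and the other 5 lay between 0.08 and 0.14. MiR-802, itself a liver-enriched miRNA, was the one called higher, by 0.68 (limma adjusted p = 0.0232) and by 1.35 without scaling (limma adjusted p = 3.09e-04), and it was above 0 under all 10 scalings and floors tried. Its level was low, with a mean log2 scaled level of 1.94 in CCL4 and 1.22 in olive oil liver, against 11.5 and 12.3 for miR-122.

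**Figure D5:**
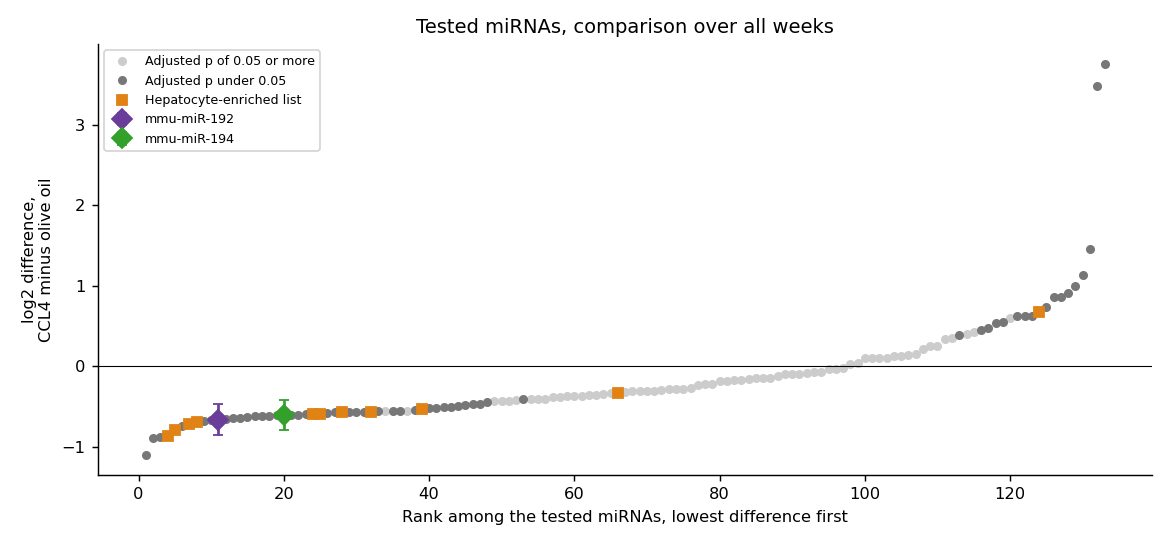
Log2 difference between CCL4 and olive oil over all weeks on the scaled values (y axis) for the 133 miRNAs tested, ordered from lowest to highest (x axis), with miR-192 and miR-194 (bars, SE) and the hepatocyte-enriched miRNAs marked and calls in darker grey. MiR-192 (11th) and miR-194 (20th) lie among the hepatocyte-enriched miRNAs in the lower part of the order, below the median of −0.32, while miR-802 lies near the upper end; without scaling miR-192 and miR-194 lie at 0.010 and 0.067.

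Marker miRNAs of other cell types were counted in the same arrays, on the scaled values unless stated, beside 13.5% of all miRNAs tested called higher and 35.3% called lower. The miRNAs named from these lists were picked after their values were seen. Of 6 mesenchymal and stellate cell miRNAs 5 were tested, miR-199a-5p, miR-199b, miR-199b* and miR-214 were called higher (0.55 to 1.46), 0 were called lower, and miR-145 was not detected. The summed scaled level was 30.6 to 50.3 in CCL4 liver and 22.4 to 29.4 in olive oil liver. That list holds miR-199 family members and the epithelial list miR-200a and miR-200b, which the study picked from these arrays, so their counts are no independent evidence. Of 6 leukocyte miRNAs 4 were tested, 0 were called higher by limma (0 at an unadjusted p under 0.05) and miR-146a was lower (−0.87), with miR-150 not detected and sums of 50.4 to 144.8 in CCL4 liver and 72.2 to 107 in olive oil liver. Without scaling this count turned, with 0 called lower (miR-146a −0.20, limma adjusted p = 0.620) and miR-223 called higher (0.92, limma adjusted p = 0.0253). Of 3 erythroid miRNAs 0 were called by limma (1 lower at an unadjusted p under 0.05), and their sums, 378 to 961 and 537 to 1225, overlapped. Of 5 biliary and other epithelial miRNAs, which matter here because gut and kidney epithelium also express the miR-192 and miR-194 clusters, 2 were tested and miR-200b was called higher (0.45), miR-200c, miR-141 and miR-429 were not detected, and the sums were 4.77 to 7.34 and 4.65 to 4.93. That 1 call became 2 without scaling, with the percentile or the median of the miRNAs detected on all arrays and without the first CCL4 array of week 6, and 0 by limma when any other single array was left out and with the replicate block, the slide row, no week term, quantile normalization, normexp, spot means or no filter. No miRNA of the 4 on the pancreas list was detected. The defining hepatocyte markers miR-122 and miR-802 were detected on every array, with scaled sums of 2044 to 3552 in CCL4 liver and 4633 to 5145 in olive oil liver, which did not overlap, and unscaled sums of 18520 to 35139 and 24211 to 30034, which did. Nearly all of each sum was miR-122, and miR-802 was higher in CCL4 liver. The part of these cell types in the values of miR-192 and miR-194 was not tested.

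Both probe designs of each miRNA gave like differences. The scaled difference without a week term was −0.58 and −0.60 for the miR-192 designs and −0.56 and −0.52 for the miR-194 designs, and the unscaled difference was 0.08 and 0.06, and 0.10 and 0.15. The designs of one miRNA share the RNA and the array and are not replicates.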

How the data were processed

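The data were 8 single-colour Agilent arrays of liver RNA. Per the file headers, the deposited scanner files were made with Feature Extraction 10.5.1.1, and the background-subtracted total gene signal of each miRNA was used as intensity, with its detection flag (the methods name another version). The authors' processed table is on the log2 scale and equals log2 of that signal floored at 1, to within 1.107e-06 over 4536 values, with no scaling between arrays.

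Each array was divided by the 75th percentile of its 567 mouse miRNAs, values were then floored at 0.01, and log2 was taken. The study's methods set the floor first (run as an alternative) and divide by the percentile of all measurements of a species, here read as per array. The 133 miRNAs detected on at least 3 of 8 arrays were tested with limma 3.58.1 (R 4.3.3, data.table version 1.17.8), with week as a factor or by group means, at a Benjamini-Hochberg adjusted p of 0.05; the scripts were tested on simulated data. Ratios within arrays were compared by exact permutation. All arrays were on 1 slide and were scanned on 1 day.

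The miRNAs named were the 3 members, miR-122, the hepatocyte-enriched list and, for each member detected on all arrays, the 5 other such miRNAs with the smallest SD of the log2 ratio. The members and lists were chosen with earlier results of these data known. Other scalings, floors, filters, week terms and tests and leaving out each array were tried; the slide row and some values relative to the median were added after seeing the data. Replicate numbers did not pair the arrays (the deviations of same-numbered arrays correlated at 0.051).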

Additional observations from a re-analysis of the deposited data

How the results depend on the processing

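No value is given for miR-215 under any alternative, since it was not detected. The fit with no filter on detection included it, at the floor of 0.01 on every array. Over all weeks, values for miR-192 and miR-194 are given in that order. They turned above 0 without scaling and in the processed table (0.010 and 0.067 in both), and lost the call with the percentile over detected miRNAs (−0.46 and −0.40), with quantile normalization (−0.14 and −0.31), with normexp (−0.084 and −0.016), with no filter on detection (−0.66 and −0.60), and without the week term, by the methods' t-test after Benjamini-Hochberg or Bonferroni adjustment and by exact permutation (−0.60 and −0.55). Leaving out each array in turn gave −0.91 to −0.44 and −0.84 to −0.43, with adjusted p from 0.0123 to 0.133; both calls were lost without either array of week 4, the first CCL4 array of week 6 (−0.62 and −0.55) or the olive oil array of week 6 (−0.67 and −0.56), and the miR-194 call also without the first CCL4 array of week 8 (−0.60). The replicate block gave −0.78 and −0.73 (limma adjusted p = 0.0150), and it left no miRNA of the hepatocyte list called higher (0 in place of 1). Whether replicate numbers pair the arrays could not be settled. At week 4 the call was lost without scaling and in the processed table (−0.36 and −0.16), with normexp (−0.46 and −0.14), with no filter (−1.25 and −1.06) and, for miR-192, with quantile normalization (−0.31). Scaling by the median of detected miRNAs brought miR-192 past the threshold at weeks 6 and 8 (−0.62 and −0.34) and miR-194 at week 6 (−0.66), as did testing only miRNAs detected on all arrays for miR-194 (−0.68); leaving out arrays gave −0.79 to −0.50 and −0.82 to −0.54 at week 6, past the threshold without the second CCL4 array of week 6 for each, and the other limits are −1.25 and −1.06 at week 4, −0.29 to −0.16 and −0.32 to −0.043 at week 8. At week 8 the signs turned without scaling and in the processed table (0.37 and 0.41) and with normexp (0.27 and 0.14). Without a CCL4 array of week 6, the weekly and interaction tests took their spread from the CCL4 pair of week 8 alone. The adjusted p of the interaction ranged from 0.0105 to 0.997 and from 0.0461 to 0.997 when arrays were left out, and the ratios to miR-122 from 0.12 to 0.18 and from 0.15 to 0.22. The number of miRNAs called lower (47) was 10 with the percentile over detected miRNAs, 18 with quantile normalization, 16 without the week term, 23 and 1 by the t-test, 6 to 62 without single arrays, and 0 without scaling, in the processed table, with normexp and with no filter (limma; at an unadjusted p under 0.05, 0 in the first 3 and 65 with no filter). The number called higher (18) was 34 without scaling, 45 in the processed table, 10 with normexp, 5 with no filter, 11 without the week term, 10 and 0 by the t-test, and 11 to 17 without single arrays. Of the hepatocyte list, 4 were called lower with the percentile over detected miRNAs and without the week term, 2 with quantile normalization, 2 to 10 without single arrays, and 0 without scaling, in the processed table, with normexp and with no filter (limma; 8 with no filter at an unadjusted p under 0.05, 0 in the others), and the 1 called higher became 0 with quantile normalization, normexp and no filter and 0 to 1 without single arrays. Setting the floor before the division left the differences at −0.66 and −0.60 (adjusted p = 0.0262 and 0.0273). Of the other lists, the leukocyte list had 1 called higher without scaling and 2 in the processed table (0 before), the erythroid list 3 called lower among miRNAs detected on all arrays, 2 with a variance trend and 0 to 3 without single arrays (0 before), and the mesenchymal list 2 called higher with normexp and 1 with no filter (4 before). The cause of these changes was not tested. The unfiltered fit tested 567 miRNAs in place of 133. Over all weeks and at week 4, its limma results for miR-192 and miR-194 were weaker before adjustment too, at the same differences.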
